A study of Mus musculus with 7 samples.

Results

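The barcodes examined were those taken as mesenchymal and stellate cells of the mouse liver because they carried RNA of 4 connective tissue matrix genes. Members were chosen by measured values: a barcode with over 1000 unique molecular identifiers (UMIs, which count captured transcripts), at most 20% of them from mitochondrial genes, was kept when Dcn, Col1a1, Col1a2 and Col3a1 together gave at least 4 UMIs and at least 0.2% of its base, the UMIs left after mitochondrial and haemoglobin genes. Of 100676 barcodes that met the first 2 limits, 510 were members, or 0.507% (0.464 to 0.552, Clopper-Pearson). By the leading genes of clusters, the label held for only some of them. In a clustering without these 4 genes, 162 members fell in clusters led by mesenchymal markers. The other 348, 195 of them in library NEJ634, fell in clusters led by genes of other cells or left unnamed. Of the 348, 126 lay in a macrophage-led cluster that also carried hepatic stellate genes, and the split changed with the resolution of the clustering. Intervals in parentheses are exact 95% intervals and cover counting error only. Single-cell suspensions of liver were sequenced as 7 libraries with a droplet kit that tags the 3′ ends of transcripts, each library under its own title, by which it is named here. Every label calls the tissue a hepatoblastoma murine model, and no label separates tumor from healthy liver or gives age or sex. The study describes C57BL/6J mice that carry Cre driven by the albumin enhancer and promoter, which is active in the hepatocyte lineage, together with human MYC behind a removable stop cassette, and littermates that lack one or both alleles as normal controls. In its text the tumors are NEJ723, NEJ709, NEJ687 and NEJ634, but groups were taken from the labels, so libraries were described one by one, no difference between groups was tested and no library was treated as a replicate of another.

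Hepatic stellate cells lie between the hepatocytes and the sinusoidal endothelium, store vitamin A as retinyl esters, and can turn into contractile, collagen-secreting myofibroblasts after injury. The other mesenchymal cells of the liver are portal and adventitial fibroblasts around vessels and bile ducts, smooth muscle cells in vessel walls, and the mesothelium that covers the organ. All of them build extracellular matrix, and stellate cells also secrete hepatocyte growth factor and the chemokine Cxcl12, which holds blood-forming cells in their niche. Because Cre was driven by albumin, the mesenchyme was not the cell type aimed at by the transgene.

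The libraries differed widely in how many members they held. NEJ634 held 199 members of 40660 eligible barcodes, or 0.489% (0.424 to 0.562). The share was 2.29% in NEJ654 (130 of 5674), 1.43% in NEJ638 (91 of 6377), 0.891% in NEJ677 (61 of 6846) and 0.190% in NEJ723 (23 of 12106). NEJ709 had 4 members of 21482 and NEJ687 had 2 of 7531, and levels are therefore given for the other 5 libraries. A low share in a droplet library cannot be told apart from a loss of these cells during collagenase digestion. The number of eligible barcodes also sets the share: the UMI limit admitted 40660 barcodes in NEJ634, and barcodes without an intact cell cannot be told apart from shallow cells by these limits.

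Depth differed between the members of the libraries. Members had a median of 1860 UMIs in NEJ634 and 2568 in NEJ723, against 10121 in NEJ677, 7332.5 in NEJ654 and 5040 in NEJ638. The other eligible barcodes had medians of 1639, 4343, 3350, 2952.5 and 2284.5 in the same order, so members were the deeper barcodes except in NEJ723. Summed over members, 491809 base UMIs were available in NEJ634, 495981 in NEJ638, 158768 in NEJ723, 959046 in NEJ654 and 607276 in NEJ677. A single barcode of 85082 UMIs gave 17.0% of the NEJ634 total, and one of 37429 UMIs gave 20.7% of the NEJ723 total.

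Near the limits of the rule, 31 members had exactly 4 UMIs of the matrix genes, 24 of them in NEJ634, and 52 barcodes with 3 UMIs and at least 0.2% of base were just outside. 36 members lay between 0.2% and 0.25% of base, while 27 barcodes with 4 or more UMIs lay between 0.15% and 0.2%. Any UMI of the 4 genes was seen in 10090 eligible barcodes, and 5052 of these were in NEJ709, which held 4 members.

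Some barcode sequences occurred in more than 1 library. Of 99415 distinct eligible barcodes, 1157 were eligible in 2 or more libraries. None was a member in more than 1 library, and 11 of 510 members were eligible elsewhere. The deposited description of NEJ709 names NEJ634, so its identity rests on its title.

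Levels are UMIs per 1000000 base UMIs (CPM) summed over the members of a library. Because the kit counts 1 tag per transcript end, they were not divided by transcript length. Decorin (Dcn, ENSMUSG00000019929, chromosome 10 from 97479609 to 97518143) is a small proteoglycan that binds collagen fibrils. Its level was 1301 CPM (1202 to 1406) in NEJ634, 3821 CPM (3651 to 3997) in NEJ638, 1279 CPM (1109 to 1467) in NEJ723, 5751 CPM (5599.7 to 5904) in NEJ654 and 5297 CPM (5116 to 5484) in NEJ677. The 2 highest values were in NEJ654 and NEJ677, and the intervals of NEJ634 and NEJ723 overlapped.

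The 3 fibrillar collagen genes were ordered differently. Col1a1 (chromosome 11, 94936224 to 94953042), the alpha 1 chain of type I collagen, stood at 1704 CPM (1590.5 to 1823) in NEJ634, 1976 CPM (1854 to 2104) in NEJ638, 5574 CPM (5213 to 5954) in NEJ723, 112 CPM (91.4 to 135) in NEJ654 and 509 CPM (454 to 569) in NEJ677. Its partner chain Col1a2 (chromosome 6, 4504814 to 4541544) measured 1021 CPM in NEJ634, 2399 in NEJ638, 4491 in NEJ723, 331 in NEJ654 and 690.0 in NEJ677. For Col3a1 (chromosome 1, 45311538 to 45349706), the type III chain, the values were 2084 CPM in NEJ634, 5387 in NEJ638, 3999.6 in NEJ723, 1071 in NEJ654 and 1638 in NEJ677. Over all members NEJ723 was highest for both type I chains and NEJ654 was lowest for all 3 collagens, an order that held only in part without members carrying endothelial or macrophage UMIs, as given further on. Positions are those of GENCODE M21 (GRCm38), while the build of the files is not stated. These 4 genes chose the members, so their levels are a description.

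The mix of these genes also differed within single members. Dcn gave over 50% of the rule UMIs in 123 of 130 members of NEJ654, 51 of 61 of NEJ677 and 52 of 91 of NEJ638, but in 27 of 199 of NEJ634 and 0 of 23 of NEJ723. Of all rule UMIs in members, Col1a1 made up 36.3% in NEJ723, 27.9% in NEJ634, 14.5% in NEJ638, 6.26% in NEJ677 and 1.54% in NEJ654. All 4 genes were found together in 198 of 510 members.

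**Figure D1:**
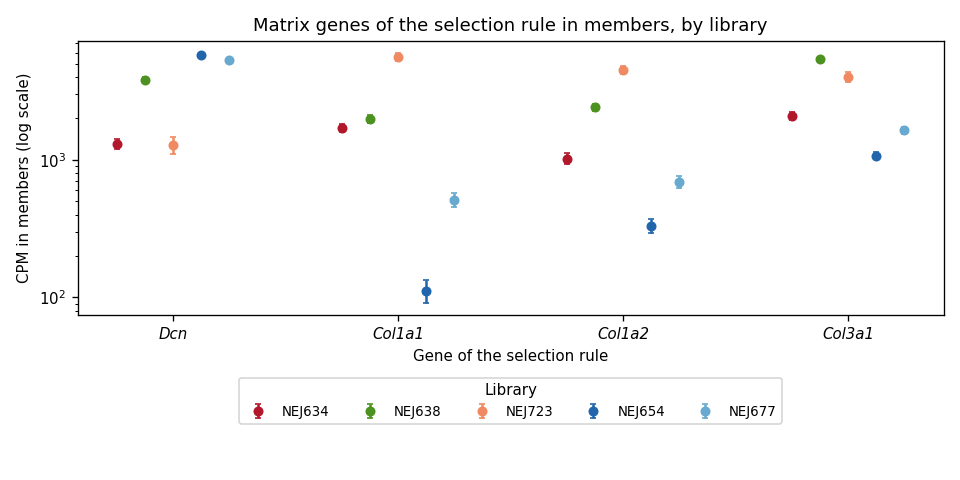
CPM (log axis) of the 4 genes of the selection rule in members of 5 libraries; points are sums over members and bars exact Poisson 95% intervals. Dcn was highest in NEJ654 (5751) and NEJ677 (5297), where Col1a1 was lowest (112 and 509); Col1a1 was highest in NEJ723 (5574).

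The 250 bases before the RefSeq transcription start are shown for 5 genes on which the differences between libraries turn: 2 genes of the rule (Col3a1 and Col1a2), Ecm1 for the stellate list, and Acta2 and Myl9 for the smooth muscle list. They were read 5′ to 3′ on the gene's strand from the RefSeq promoters of GRCm38.p6, in which 106 of the 145 named genes have an entry. Capitals mark matches on either strand to TATAAA, to CCAAT or to the CArG box, the element that serum response factor binds in smooth muscle genes. The motifs were searched without overlap between them being excluded, and a match is a description of letters. Among all 32851 promoters of this length, 12.4% held TATAAA, 33.8% held CCAAT and 1.47% a CArG box. The stretches are chr1:45311288-45311537 on the plus strand, chr6:4505368-4505617 on the plus strand, chr3:95739570-95739819 on the minus strand, chr19:34255374-34255623 on the minus strand and chr2:156775214-156775463 on the plus strand. For Col1a2 and Acta2 the RefSeq start used here lies inside the GENCODE gene, so the stretch of Col1a2 lies wholly and that of Acta2 mostly within it.
Col3a1: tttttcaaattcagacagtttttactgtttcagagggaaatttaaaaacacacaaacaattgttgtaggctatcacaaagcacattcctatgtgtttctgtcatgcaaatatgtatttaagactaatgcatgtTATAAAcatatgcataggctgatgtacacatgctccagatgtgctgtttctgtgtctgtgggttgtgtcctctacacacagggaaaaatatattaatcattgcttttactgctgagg
Col1a2: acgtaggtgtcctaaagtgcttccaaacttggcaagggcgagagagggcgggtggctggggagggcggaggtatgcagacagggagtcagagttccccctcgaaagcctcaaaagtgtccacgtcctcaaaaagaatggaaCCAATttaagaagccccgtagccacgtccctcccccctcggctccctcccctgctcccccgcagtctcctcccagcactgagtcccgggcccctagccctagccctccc
Ecm1: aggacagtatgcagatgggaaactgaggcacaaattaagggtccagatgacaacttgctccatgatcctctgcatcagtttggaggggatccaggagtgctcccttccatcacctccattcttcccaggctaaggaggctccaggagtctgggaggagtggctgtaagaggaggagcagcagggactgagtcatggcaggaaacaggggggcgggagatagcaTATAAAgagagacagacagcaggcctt
Acta2: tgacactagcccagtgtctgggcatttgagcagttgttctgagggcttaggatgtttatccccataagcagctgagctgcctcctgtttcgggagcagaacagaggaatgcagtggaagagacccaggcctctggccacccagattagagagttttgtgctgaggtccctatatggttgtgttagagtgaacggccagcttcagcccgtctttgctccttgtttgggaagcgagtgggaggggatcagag
Myl9: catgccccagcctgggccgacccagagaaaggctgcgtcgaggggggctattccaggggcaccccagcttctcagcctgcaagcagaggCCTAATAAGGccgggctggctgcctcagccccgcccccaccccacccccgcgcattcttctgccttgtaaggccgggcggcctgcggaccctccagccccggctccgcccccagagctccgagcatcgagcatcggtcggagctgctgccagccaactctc

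Col3a1 and Ecm1 each held 1 TATAAA match, Col1a2 held 1 CCAAT match, Myl9 held 1 CArG box, and Acta2 held no exact match to the 3 in this window. Only the strict CArG box was searched (CC, then 6 bases that are each A or T, then GG), elements that differ from it by a base were not, and nothing about the factor follows from a missing match.

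The members were then compared with the other eligible barcodes of the same library, to ask what they shared beyond the rule. A gene was counted as higher when its CPM in members was at least 4-fold that of the other barcodes, among genes with a mean of both CPM values of at least 10. This held for 448 of 9043 genes in NEJ634 (4.95%), 479 of 9837 in NEJ638 (4.87%), 1014 of 8730 in NEJ723 (11.6%), 351 of 9190 in NEJ654 (3.82%) and 399 of 9338 in NEJ677 (4.27%). In NEJ723 the members were few: with at least 10 UMIs in members required, 457 of 2529 genes were higher, a larger share of fewer genes. In parentheses beside the count of each list stand the shares over all genes, in the same order of libraries. Since the members were chosen by their RNA, these folds describe them and were not tested. Of 7111 genes that passed the filter in all 5 libraries, 116 were at least 4-fold higher in each.

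Among genes that passed the filter in all 5 libraries, rule genes aside, the 20 with the highest median fold included matrix genes, matrix enzymes, receptors and secreted ligands. A gene low in the other barcodes passed the filter only when high in members, which were chosen by matrix RNA. The place of matrix genes in this ranking, and among the genes higher in all 5 libraries, was therefore largely fixed in advance. Type VI collagen, a beaded filament around cells, was represented by Col6a2 and Col6a1, with log2 medians of 8.92 and 8.56. Col6a2 stood at 89.5 CPM in NEJ634, 298 in NEJ638, 271 in NEJ723, 59.4 in NEJ654 and 119 in NEJ677, against at most 0.618 CPM in the other barcodes. Adamts2, which trims the ends of fibrillar collagens, had a log2 median of 8.81, and the elastic microfibril gene Mfap4 one of 8.75. Lum (lumican, a small proteoglycan of collagen fibrils) reached 191 CPM in NEJ634, 739.9 in NEJ638, 661 in NEJ723, 234 in NEJ654 and 216 in NEJ677. Loxl1, which cross-links elastin, the laminin chain Lama2 and the matricellular protein Postn were also among the 20 (log2 medians 7.80, 7.82 and 7.52).

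Receptors in the same group of 20 were Pdgfra and Pdgfrb, which bind platelet-derived growth factors, the endothelin receptor Ednra and the guidance receptor Robo2. Pdgfrb stood at 95.6 CPM in NEJ634, 66.5 in NEJ638, 365 in NEJ723, 186 in NEJ654 and 143 in NEJ677, against 0.443 to 1.55 CPM in the other barcodes. NEJ723 was highest and NEJ638 lowest. Bmp5, Gdf2 and Gdf10 are ligands of the bone morphogenetic protein family, and Tnfrsf11b is the secreted decoy receptor osteoprotegerin. Gdf2 (BMP9, a ligand known from stellate cells that acts on endothelium) measured 44.7 CPM in NEJ634, 204 in NEJ638, 107 in NEJ723, 324 in NEJ654 and 288 in NEJ677. Tbx20 and the Hand2 antisense transcript Hand2os1, Cd248 (endosialin of pericytes and fibroblasts) and the glypican Gpc6 completed the list, with log2 medians of 7.84, 7.60, 8.19 and 7.65. Hand2os1 lies beside Hand2 on the opposite strand, and whether the authors' counting could share reads between them was not tested.

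Stellate genes were high in members of each library. Of 20 hepatic stellate markers, the number at least 4-fold higher among those that passed the filter was 18 of 19 in NEJ634, 20 of 20 in NEJ638, 16 of 16 in NEJ723, 20 of 20 in NEJ654 and 20 of 20 in NEJ677 (all genes 4.95, 4.87, 11.6, 3.82 and 4.27%). The median log2 fold of the list was 5.08 in NEJ634, 6.07 in NEJ638, 7.78 in NEJ723, 6.31 in NEJ654 and 6.58 in NEJ677, while over all genes tested it lay between 0.00 and 0.11. The filter admits genes through the set in which they are high, so here and for the lists below the counts describe the genes that passed. The summed level of the list nevertheless differed 7.94-fold between libraries, from 1415 CPM in NEJ634 to 11233 in NEJ654.

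Ecm1, a secreted matrix protein of quiescent stellate cells, was spread over a wide range. It measured 150.5 CPM (118 to 189) in NEJ634, 1657 CPM (1546 to 1775) in NEJ638, 170.1 CPM (112 to 247) in NEJ723, 3317 CPM (3203 to 3434) in NEJ654 and 2409 CPM (2287 to 2536) in NEJ677. NEJ654, NEJ677 and NEJ638 were high and separate from each other, and the intervals of NEJ634 and NEJ723 overlapped. Lrat, the enzyme that makes retinyl esters, was found at 73.2 CPM in NEJ634, 341 in NEJ638, 75.6 in NEJ723, 388 in NEJ654 and 334 in NEJ677; NEJ654, NEJ677 and NEJ638 overlapped, as did NEJ634 and NEJ723. Reln, the secreted protein reelin, stood at 99.6 CPM in NEJ634, 657 in NEJ638, 227 in NEJ723, 615 in NEJ654 and 644 in NEJ677, and Colec11, a secreted collectin, at 136 CPM in NEJ634, 625 in NEJ638, 472 in NEJ723, 1684 in NEJ654 and 1202 in NEJ677.

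Endothelial barcodes, the other stromal class, carried few UMIs of the stellate list, with summed levels of 213 CPM in NEJ634, 266 in NEJ638, 272 in NEJ723, 384 in NEJ654 and 334 in NEJ677. Lymphocyte barcodes, which should lack these genes, gave 55.6 CPM in NEJ634, 92.4 in NEJ638, 66.2 in NEJ723, 61.5 in NEJ654 and 45.8 in NEJ677. Members were above both in each of the 5 libraries, and their values were 1415 CPM in NEJ634, 6770.4 in NEJ638, 4485 in NEJ723, 11233 in NEJ654 and 8581 in NEJ677. Both comparison sets left out barcodes that met the member rule, and 168 of 510 members also met the endothelial rule given further on. The difference from endothelial barcodes is therefore partly set by construction.

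**Figure D2:**
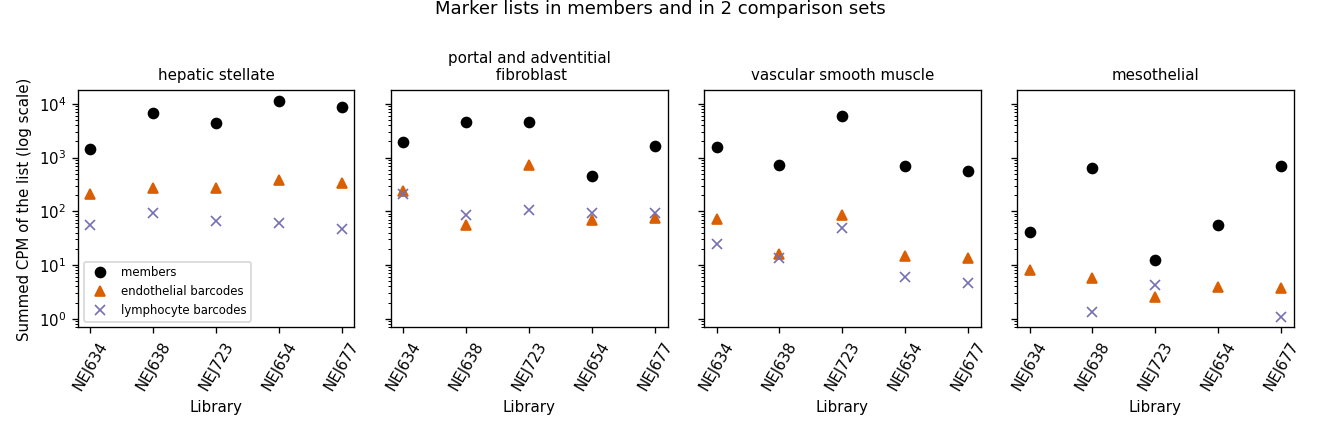
Summed CPM (log axis) of 4 marker lists in members (dots), endothelial barcodes (triangles) and lymphocyte barcodes (crosses) of 5 libraries; a set at 0 has no mark. Members exceed both sets for the stellate list in every library shown, from 1415 CPM in NEJ634 to 11233 in NEJ654, while the smooth muscle list peaks in NEJ723 (6021) and the mesothelial list in NEJ677 and NEJ638. Barcodes that met the member rule were left out of both comparison sets.

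Markers of portal and adventitial fibroblasts were spread unevenly. The list of 18 summed to 1976 CPM in NEJ634, 4696 in NEJ638, 4629 in NEJ723, 450.4 in NEJ654 and 1678 in NEJ677. At least 4-fold higher were 14 of 16 in NEJ634, 17 of 18 in NEJ638, 11 of 12 in NEJ723, 5 of 9 in NEJ654 and 12 of 15 in NEJ677 (all genes 4.95, 4.87, 11.6, 3.82 and 4.27%) of the genes that passed the filter. Eln, the elastin gene, stood at 199 CPM (162 to 243) in NEJ634, 677 CPM (607 to 754) in NEJ638, 2948 CPM (2687 to 3227) in NEJ723, 161 CPM (136 to 188) in NEJ654 and 216 CPM (180.4 to 256) in NEJ677. NEJ723 was far above the rest. Gsn (gelsolin, which severs actin filaments) reached 1026 CPM in NEJ638 but 126 in NEJ723 and 61.5 in NEJ654. Mfap5, a microfibril protein of adventitial fibroblasts, measured 496 CPM (436 to 562) in NEJ638 and 277 CPM (232 to 327) in NEJ634, and 41.2 in NEJ677; NEJ654 had 1 UMI and NEJ723 none, where 3 UMIs would be 18.9 CPM.

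The smooth muscle list was 10.5-fold higher in NEJ723 than in NEJ677 over all members, with summed levels of 1545 CPM in NEJ634, 729.9 in NEJ638, 6021 in NEJ723, 704 in NEJ654 and 575 in NEJ677. Every list gene that passed the filter was at least 4-fold higher in members, 7 of 7 in NEJ634, 6 of 6 in NEJ638, 8 of 8 in NEJ723, 6 of 6 in NEJ654 and 5 of 5 in NEJ677 (all genes 4.95, 4.87, 11.6, 3.82 and 4.27%). The 12 genes together gave at most 43.9 CPM in the other barcodes of a library. A gene low there passed the filter only when high in members, so these counts were largely fixed in advance. Tagln (transgelin, an actin-binding protein) was found at 767 CPM in NEJ634, 244 in NEJ638, 2148 in NEJ723, 182 in NEJ654 and 245 in NEJ677. Acta2, smooth muscle actin and the usual mark of myofibroblasts, stood at 354 CPM (303 to 410.4) in NEJ634, 127 CPM (97.6 to 163) in NEJ638, 1902 CPM (1694 to 2129) in NEJ723, 48.0 CPM (35.1 to 64.0) in NEJ654 and 29.6 CPM (17.6 to 46.8) in NEJ677. The barcode with the most UMIs carried 178 of the 302 Acta2 UMIs of NEJ723; without it Acta2 was 985 CPM and Tagln 1811, still above the other 4 libraries. Myl9, the regulatory light chain of smooth muscle myosin, followed the same order at its top, with 504 CPM in NEJ723 and 79.0 to 106 in the others.

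Mesothelial markers appeared in NEJ638 and NEJ677. Upk3b, a uroplakin of the mesothelium, had 148 UMIs (244 CPM) in NEJ677 and 76 (153 CPM) in NEJ638, against 12 in NEJ654, 5 in NEJ634 and 0 in NEJ723. Msln (mesothelin) had 96 UMIs in NEJ638 and 107 in NEJ677. They came from few barcodes: at full depth 5 of 61 members of NEJ677 and 5 of 91 of NEJ638 had a Upk3b UMI. Schwann and neural crest genes were at or near 0: Sox10 had no UMI in members of the 5 libraries, and the list summed to at most 18.9 CPM.

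Other matrix genes were described by group. Of 16 further collagen genes, 11 of 13 in NEJ634, 10 of 14 in NEJ638, 15 of 15 in NEJ723, 7 of 11 in NEJ654 and 7 of 11 in NEJ677 (all genes 4.95, 4.87, 11.6, 3.82 and 4.27%) were at least 4-fold higher. Col14a1, a fibril-associated collagen, was at least 4-fold higher in each library, at 807 CPM in NEJ634, 1087 in NEJ638, 907 in NEJ723, 1303 in NEJ654 and 1247 in NEJ677. Col4a1, a basement membrane chain that endothelium also makes, stood at 1120.3 CPM in NEJ634, 762 in NEJ638, 3603 in NEJ723, 716 in NEJ654 and 912 in NEJ677, where endothelial barcodes had 796 CPM in NEJ634, 754 in NEJ638, 1645 in NEJ723, 538 in NEJ654 and 764 in NEJ677. It was above 4-fold over the other barcodes in NEJ634 and NEJ723, and below it in NEJ638, NEJ654 and NEJ677, where 40.3%, 34.1% and 30.3% of eligible barcodes met an endothelial rule (at least 4 UMIs and 0.2% of base of Cdh5, Kdr, Egfl7 and Ptprb). The barcode of most UMIs gave 203 Col4a1 UMIs in NEJ634, where it also carried 105 of Ptprb, and 69 in NEJ723.

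Small proteoglycans and glycoproteins were high in each library. Bgn (biglycan) reached 462 CPM in NEJ634, 1327 in NEJ638, 1707 in NEJ723, 1376 in NEJ654 and 1223.5 in NEJ677, and Prelp, a proteoglycan that anchors basement membranes, 89.5 CPM in NEJ634, 304 in NEJ638, 605 in NEJ723, 691 in NEJ654 and 565 in NEJ677. Sparc, a collagen-binding glycoprotein, was at least 4-fold higher in each library, at 2891 CPM in NEJ634, 4575 in NEJ638, 4944 in NEJ723, 5697 in NEJ654 and 5204 in NEJ677. Endothelial barcodes carried it too, at 2041 CPM in NEJ634, 1762 in NEJ638, 3387 in NEJ723, 2084 in NEJ654 and 1994 in NEJ677. The glycoprotein list had 14 of 16 in NEJ634, 11 of 16 in NEJ638, 15 of 16 in NEJ723, 11 of 15 in NEJ654 and 10 of 15 in NEJ677 (all genes 4.95, 4.87, 11.6, 3.82 and 4.27%) genes at least 4-fold higher.

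Enzymes that fold and trim collagen were divided. Of the collagen processing list, 7 of 12 in NEJ634, 7 of 13 in NEJ638, 10 of 12 in NEJ723, 4 of 10 in NEJ654 and 6 of 12 in NEJ677 (all genes 4.95, 4.87, 11.6, 3.82 and 4.27%) were at least 4-fold higher. Serpinh1, the collagen chaperone, was among them in each library, with 295 CPM in NEJ634, 766 in NEJ638, 346 in NEJ723, 387 in NEJ654 and 384 in NEJ677, whereas P4hb, a disulfide isomerase used by secreting cells in general, stayed within 4-fold (199 to 472 CPM). Pcolce, which speeds removal of the collagen C-propeptide, had 104 CPM in NEJ634, 308 in NEJ638, 334 in NEJ723, 185 in NEJ654 and 234 in NEJ677. Among proteases and inhibitors, Timp2, an inhibitor of metalloproteases, stood at 197 CPM in NEJ634, 619 in NEJ638, 453 in NEJ723, 309 in NEJ654 and 481 in NEJ677, and the aggrecan-cleaving Adamts5 at 46.8 CPM in NEJ634, 238 in NEJ638, 63.0 in NEJ723, 151 in NEJ654 and 145 in NEJ677. Counts for that list were 7 of 8 in NEJ634, 6 of 9 in NEJ638, 9 of 9 in NEJ723, 4 of 7 in NEJ654 and 5 of 8 in NEJ677 (all genes 4.95, 4.87, 11.6, 3.82 and 4.27%). Timp1, an inhibitor raised in fibrosis, had a UMI at full depth in members numbering 9 of 199 in NEJ634, 6 of 91 in NEJ638, 7 of 23 in NEJ723, 3 of 130 in NEJ654 and 6 of 61 in NEJ677, and after thinning to 1000 UMIs in 4 in NEJ634, 1 in NEJ638, 1 in NEJ723, 2 in NEJ654 and 1 in NEJ677, too few to order the libraries. Lymphocyte barcodes had it in at most 0.437% at full depth.

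Genes of the myofibroblast activation list, many of which other cells also use, summed to 6399 CPM in NEJ634, 8809 in NEJ638, 19998 in NEJ723, 7316 in NEJ654 and 9310.4 in NEJ677. Lgals1 (galectin 1) stood at 730.0 CPM in NEJ634, 748 in NEJ638, 3093 in NEJ723, 579.7 in NEJ654 and 1904 in NEJ677 and S100a6 (a calcium-binding protein) at 584 CPM in NEJ634, 1091 in NEJ638, 5032.5 in NEJ723, 159.5 in NEJ654 and 1075 in NEJ677. Over all members both were highest in NEJ723, where the other barcodes had 388 and 1493 CPM. Without the largest barcode Lgals1 was 2152 and S100a6 4638 CPM in NEJ723. Fn1 (fibronectin) measured 486 CPM in NEJ634, 952 in NEJ638, 1203 in NEJ723, 296 in NEJ654 and 377 in NEJ677.

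Signalling genes of the mesenchyme were next. Of the receptors for PDGF, TGF-beta, FGF and BMP, 4 of 10 in NEJ634, 5 of 12 in NEJ638, 9 of 10 in NEJ723, 4 of 12 in NEJ654 and 4 of 12 in NEJ677 (all genes 4.95, 4.87, 11.6, 3.82 and 4.27%) were at least 4-fold higher. Fgfr2 stood at 34.6 CPM in NEJ634, 216 in NEJ638, 25.2 in NEJ723, 259.6 in NEJ654 and 206 in NEJ677, highest in NEJ654, NEJ638 and NEJ677, whose intervals overlapped over all members. Eng (endoglin, a co-receptor of the endothelium) stood at 238 CPM in NEJ634, 504 in NEJ638, 157 in NEJ723, 971 in NEJ654 and 1062 in NEJ677 in members, but endothelial barcodes carried it at 675 CPM in NEJ634, 1271 in NEJ638, 766 in NEJ723, 1512 in NEJ654 and 1652 in NEJ677, and it was within 4-fold in all but NEJ723. Hgf, hepatocyte growth factor, measured 44.7 CPM in NEJ634, 333 in NEJ638, 302 in NEJ723, 293 in NEJ654 and 316 in NEJ677, with NEJ634 the lowest. Rspo3, which amplifies Wnt signals around the central vein, reached 588 CPM in NEJ654 and 573 in NEJ677, against 15 UMIs in NEJ634 and 2 in NEJ723. The list of 22 secreted growth factors gave 5 of 12 in NEJ634, 14 of 18 in NEJ638, 9 of 16 in NEJ723, 9 of 14 in NEJ654 and 11 of 16 in NEJ677 (all genes 4.95, 4.87, 11.6, 3.82 and 4.27%).

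Binders of growth factors were also abundant. Igfbp3, which carries insulin-like growth factors, was at least 4-fold higher in each of the 5 libraries, with 209 CPM in NEJ634, 474 in NEJ638, 239 in NEJ723, 833 in NEJ654 and 474 in NEJ677. Igfbp7 stood at 1952 CPM in NEJ634, 1639 in NEJ638, 3930.3 in NEJ723, 4751 in NEJ654 and 3567 in NEJ677, but it is also an endothelial gene (2469 CPM in NEJ634, 2215 in NEJ638, 3003 in NEJ723, 4489 in NEJ654 and 3722 in NEJ677 in endothelial barcodes) and was under 4-fold in NEJ638, NEJ654 and NEJ677. In that list 6 of 9 in NEJ634, 9 of 13 in NEJ638, 9 of 12 in NEJ723, 7 of 11 in NEJ654 and 7 of 11 in NEJ677 (all genes 4.95, 4.87, 11.6, 3.82 and 4.27%) were at least 4-fold higher. Cxcl12, the niche chemokine, was at least 4-fold higher in each library, at 216 CPM (176 to 261) in NEJ634, 1135 CPM (1043 to 1233) in NEJ638, 510.2 CPM (405 to 634) in NEJ723, 1130.3 CPM (1064 to 1199.6) in NEJ654 and 837 CPM (765 to 913) in NEJ677. Over all members NEJ638 and NEJ654 overlapped at the top and NEJ634 was lowest. Of the 12 niche genes it was the only one so in all 5 libraries. Kitl (stem cell factor) reached 89.5 CPM in NEJ634 and 33.4 to 84.7 in the other 4, and Vcam1, the adhesion molecule, stood at 605 in NEJ723 but 55.6 without its largest barcode.

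Of the mesenchymal transcription factors, 4 of 8 in NEJ634, 7 of 14 in NEJ638, 10 of 12 in NEJ723, 7 of 14 in NEJ654 and 7 of 14 in NEJ677 (all genes 4.95, 4.87, 11.6, 3.82 and 4.27%) were at least 4-fold higher. Members summed to 539 CPM in NEJ634, 1569 in NEJ638, 932 in NEJ723, 1266 in NEJ654 and 1176 in NEJ677. The other barcodes summed to 114, 837, 52.5, 352 and 427 CPM in the same order. Tcf21, a stellate and fibroblast regulator, stood at 48.8 CPM in NEJ634, 159 in NEJ638, 126 in NEJ723, 316 in NEJ654 and 163 in NEJ677, and Hand2, a transcription factor of stellate cells, at 26.4 CPM in NEJ634, 135 in NEJ638, 145 in NEJ723, 159.5 in NEJ654 and 137 in NEJ677. Nr2f2, shared with endothelium, had 563 CPM in NEJ638 where endothelial barcodes had 956. Genes of vitamin A handling at least 4-fold higher were 1 of 6 in NEJ634, 3 of 10 in NEJ638, 3 of 6 in NEJ723, 2 of 9 in NEJ654 and 2 of 9 in NEJ677 (all genes 4.95, 4.87, 11.6, 3.82 and 4.27%), and Rbp4, the plasma retinol carrier of hepatocytes, was below the other barcodes in 4 of 5 libraries. Serping1, the C1 inhibitor, was the one gene of the complement and chemokine list at least 4-fold higher in all 5, at 148 CPM in NEJ634, 516 in NEJ638, 466 in NEJ723, 417 in NEJ654 and 530.2 in NEJ677; the list gave 2 of 8 in NEJ634, 4 of 12 in NEJ638, 4 of 8 in NEJ723, 4 of 12 in NEJ654 and 6 of 12 in NEJ677 (all genes 4.95, 4.87, 11.6, 3.82 and 4.27%).

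Among imprinted growth genes, H19 (a noncoding RNA of fetal and tumor liver) stood at 1454 CPM in NEJ634, 119 in NEJ638, 12.6 in NEJ723, 0 in NEJ654 and 0 in NEJ677 in members and 3228 CPM in NEJ634, 45.6 in NEJ638, 48.7 in NEJ723, 71.2 in NEJ654 and 46.3 in NEJ677 in the other barcodes. Igf2, its neighbouring growth factor, had 706 CPM in members and 1462 in the others of NEJ634. In both cases members of NEJ634 were below the rest of that library. A free-RNA profile, read from barcodes ranked 45000 to 90000 by UMIs, which may still include cells, amounted to 64.2% of its members' UMIs when scaled to the hepatocyte list and to 102% when scaled to lymphocyte genes, so its size is uncertain. With the smaller subtracted, H19 and Igf2 stood at 0 and 0 CPM in NEJ634, S100a6 at 218 and Mki67 at 174. Whether these UMIs came from the members' own RNA was not tested. Meg3, a maternally expressed noncoding RNA, was instead higher in members: 83.4 CPM in NEJ634, 242 in NEJ638, 353 in NEJ723, 22.9 in NEJ654 and 87.3 in NEJ677, at least 4-fold in each. For the list, 3 of 11 in NEJ634, 6 of 12 in NEJ638, 5 of 11 in NEJ723, 2 of 10 in NEJ654 and 3 of 9 in NEJ677 (all genes 4.95, 4.87, 11.6, 3.82 and 4.27%) passed 4-fold.

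Of the cell cycle list, 0 of 13 in NEJ634, 0 of 13 in NEJ638, 0 of 13 in NEJ723, 0 of 12 in NEJ654 and 0 of 10 in NEJ677 were at least 4-fold higher (all genes 4.95, 4.87, 11.6, 3.82 and 4.27%). So few genes cannot be set apart from those shares. At least 4-fold lower were 6 of 13 in NEJ723 and 1 of 10 in NEJ677. Over all genes 0.785%, 2.04%, 3.88%, 4.37% and 3.66% were that much lower, in the same order of libraries. The list summed to 1830.0 CPM in NEJ634, 833 in NEJ638, 749.5 in NEJ723, 409 in NEJ654 and 275 in NEJ677 in members and 1780.4 CPM in NEJ634, 1049 in NEJ638, 2519 in NEJ723, 501 in NEJ654 and 343 in NEJ677 in the others. Mki67 stood at 392 CPM in NEJ634, 64.5 in NEJ638, 139 in NEJ723, 65.7 in NEJ654 and 24.7 in NEJ677. NEJ634 was highest, and its other barcodes stood at 409 CPM. Immediate early and heat shock genes, which rise during tissue digestion, summed to 4139.8 CPM in NEJ634, 7829 in NEJ638, 3955 in NEJ723, 5349 in NEJ654 and 5006 in NEJ677 in members. In each library 0 of 13 were at least 4-fold higher (all genes 4.95, 4.87, 11.6, 3.82 and 4.27%), too few genes to set apart from those shares.

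RNA of other cell types was also measured in the members, because a barcode can hold 2 cells or free RNA. No doublet caller was run; instead 193 of 510 members had at least 4 UMIs and 1% of base from a list of another lineage, with 71 in NEJ634, 24 in NEJ638, 1 in NEJ723, 63 in NEJ654, 29 in NEJ677, 4 of 4 in NEJ709 and 1 of 2 in NEJ687. The 4 members of NEJ709 had 64.9% haemoglobin UMIs, each carried at least 1% of base from the neutrophil list, and in 1 of them a UMI of the stellate list was seen. For NEJ709 the label rests on 23 UMIs of the rule genes alone.

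At this limit 86 members carried the macrophage list, 60 the hepatocyte list, 45 the neutrophil list and 14 the endothelial list. Macrophage UMIs were most often seen in NEJ654 (52 members) and neutrophil UMIs in NEJ634 (40). A lower limit was used for the endothelial genes that serve as comparison. 77 of 130 members of NEJ654, 40 of 61 of NEJ677, 34 of 91 of NEJ638, 17 of 199 of NEJ634 and 0 of 23 of NEJ723 also had at least 4 UMIs and 0.2% of base of Cdh5, Kdr, Egfl7 and Ptprb. These were 59.2%, 65.6%, 37.4%, 8.54% and 0% of members, against 34.1%, 30.3%, 40.3%, 2.27% and 0.413% of all eligible barcodes. The endothelial list of 10 summed to 1812 CPM in NEJ634, 3678 in NEJ638, 189 in NEJ723, 4846 in NEJ654 and 5633 in NEJ677 in members and 519 CPM in NEJ634, 5443 in NEJ638, 105 in NEJ723, 4715 in NEJ654 and 4624 in NEJ677 in the others. The macrophage list gave 1949.9 CPM in NEJ634, 2125 in NEJ638, 1814 in NEJ723, 9192 in NEJ654 and 6572 in NEJ677 in members and 3343 CPM in NEJ634, 3132 in NEJ638, 1028 in NEJ723, 7884 in NEJ654 and 5505 in NEJ677 in the others. In NEJ654, NEJ677 and NEJ723 both lists were higher in members than in the rest of the library. Without its barcode of most UMIs the endothelial list of NEJ634 was 1127 CPM. For NEJ723 the difference rested on the barcode of most UMIs: without it the macrophage list was 318 CPM and the endothelial list 87.4, both below the other barcodes. Whether such barcodes hold more than 1 cell was not tested.

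The same levels were read without those barcodes. Leaving out the members carrying at least 4 UMIs and 0.2% of base of the endothelial or macrophage list, an alternative chosen after seeing the data, 27 members remained in NEJ654, 15 in NEJ677 and 45 in NEJ638. Of the stellate list, 20 of 20, 20 of 20 and 19 of 19 were still at least 4-fold higher. Over all genes 943 of 9182, 1041 of 9404 and 711 of 9783 were, in the same order of libraries. Among these members, Ecm1 stood at 6562, 1844 and 1382 CPM and Lrat at 730.3, 263 and 186. Col1a1 was 699, 2503 and 4472 CPM in the same libraries, so its level there depended on which members were counted. NEJ723 (5956) still had the highest Col1a1, while NEJ634 (1264) was now below NEJ677. The order of the other collagens changed more: Col1a2 was 767 CPM in NEJ634, 5131 in NEJ638, 5019 in NEJ723, 929 in NEJ654 and 2614 in NEJ677, and Col3a1 2088 CPM in NEJ634, 10671.5 in NEJ638, 4225 in NEJ723, 3944 in NEJ654 and 4863 in NEJ677. For Col3a1 NEJ634 was then lowest and NEJ638 highest. For Col1a2 NEJ638 and NEJ723 were close at the top, and NEJ634 and NEJ654 were close at the bottom. Lgals1 and S100a6, described above, were highest in NEJ677, at 8217 and 6515 CPM against 2152 and 4638 in NEJ723. Only 15 members of NEJ677 remained, and its mesothelial list was then higher too, as given below. Acta2 stayed highest in NEJ723 (985 CPM), but NEJ638 (283) was then above NEJ634 (215). The mix of members shifted as well. The hepatocyte list was then higher in each of the 5 libraries, at 32986 CPM against 17781 in NEJ638 and 11103 against 6010 in NEJ634. In the clusters described below, the median endothelial share was 0.637% of base in cluster 3 and 0 in cluster 4. The limit thus fell unevenly on the clusters, and its part in the changed orders was not tested.

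Other genes and lists moved too. Dcn was 2031 CPM in NEJ634, 4281 in NEJ638, 1517 in NEJ723, 14638 in NEJ654 and 6403 in NEJ677, highest in NEJ654. Cxcl12 was 2462 CPM in NEJ654 and 884 in NEJ638. Fgfr2 was 563, 186 and 253 CPM in NEJ654, NEJ638 and NEJ677. The stellate list summed to 1479 CPM in NEJ634, 5389 in NEJ638, 5146 in NEJ723, 23401 in NEJ654 and 7234 in NEJ677, the fibroblast list to 4006 CPM in NEJ634, 10144 in NEJ638, 5384 in NEJ723, 1951 in NEJ654 and 9210.0 in NEJ677. The smooth muscle list was 1289 CPM in NEJ634, 1191 in NEJ638, 4407 in NEJ723, 1534 in NEJ654 and 1104 in NEJ677. It was still highest in NEJ723, whereas the myofibroblast activation list was higher in NEJ677 (24286.5 CPM) than in NEJ723 (17804). The mesothelial list of NEJ677 was then 4266 CPM, against 693 over all its members. Of all NEJ677 members, 5 lay in cluster 5, named below as mesothelial-like. Cluster 5 had 27769 CPM of the activation list and 10920.5 of the fibroblast list. Cluster 4, named below as fibroblast-like, had 22227 and 11347 CPM. The part of mesothelial members in these NEJ677 levels was not tested.

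The genes with the widest range of level between libraries were largely not mesenchymal. Of the 10, 5 were neutrophil genes of the list (S100a9, S100a8, Retnlg, Ngp and Camp), and Alas2 (heme synthesis), Cd24a, Afp (the fetal liver serum protein) and H19 are known from blood, hepatoblast or epithelial cells. S100a9, a subunit of calprotectin, stood at 2194 CPM in NEJ634, 18.1 in NEJ638, 8012 in NEJ723, 2.09 in NEJ654 and 3.29 in NEJ677 in members and 11088 CPM in NEJ634, 2269 in NEJ638, 10410.1 in NEJ723, 1152 in NEJ654 and 899 in NEJ677 in the others. In NEJ723 the members' value was 187 CPM without the 1 member that carried 1% of base from another lineage, and in NEJ634 it was 782 without 71 such members, a lower value by construction since the neutrophil list was one of those used. The neutrophil list summed to 5099.5 CPM in NEJ634, 46.4 in NEJ638, 17869 in NEJ723, 10.4 in NEJ654 and 3.29 in NEJ677. Mfap5 was the one mesenchymal gene of the 10.

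Shares of members with a UMI were compared at 1 depth, after every barcode had been thinned to 1000 UMIs, with lymphocyte barcodes as background. Lymphocytes had median depths of 2569.5 UMIs in NEJ634, 1526 in NEJ638, 2577 in NEJ723, 2274 in NEJ654 and 2301.5 in NEJ677 before thinning. Ecm1 was then seen in 10.6% (6.65 to 15.7) in NEJ634, 63.7% (53.0 to 73.6) in NEJ638, 17.4% (4.95 to 38.8) in NEJ723, 83.8% (76.4 to 89.7) in NEJ654 and 80.3% (68.2 to 89.4) in NEJ677 of members, and in at most 1.20% of lymphocytes. Unthinned, the members' shares were 25.6% in NEJ634, 83.5% in NEJ638, 52.2% in NEJ723, 98.5% in NEJ654 and 93.4% in NEJ677, and the lymphocytes' at most 3.93%. Thinning kept NEJ654, NEJ677 and NEJ638 above NEJ634 and NEJ723.

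Acta2 was seen in 17.6% (12.6 to 23.6) in NEJ634, 3.30% (0.685 to 9.33) in NEJ638, 43.5% (23.2 to 65.5) in NEJ723, 2.31% (0.478 to 6.60) in NEJ654 and 3.28% (0.400 to 11.3) in NEJ677 of thinned members, with at most 0.437% of lymphocytes. The unthinned shares were 25.1% in NEJ634, 5.49% in NEJ638, 60.9% in NEJ723, 3.08% in NEJ654 and 3.28% in NEJ677 in members and at most 1.76% in lymphocytes. For Lrat the thinned share ran from 0 of 23 members in NEJ723, with an exact interval that reaches 14.8% (3 counts would be 13.0%), to 33.8% (25.8 to 42.7) in NEJ654; unthinned it was 13.0% and 81.5%, and in lymphocytes at most 0.630%. In NEJ634 lymphocytes carried H19 too: it was in 67.8% (60.9 to 74.3) of thinned members and 54.7% of thinned lymphocytes, and in 80.9% and 80.6% unthinned.

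**Figure D3:**
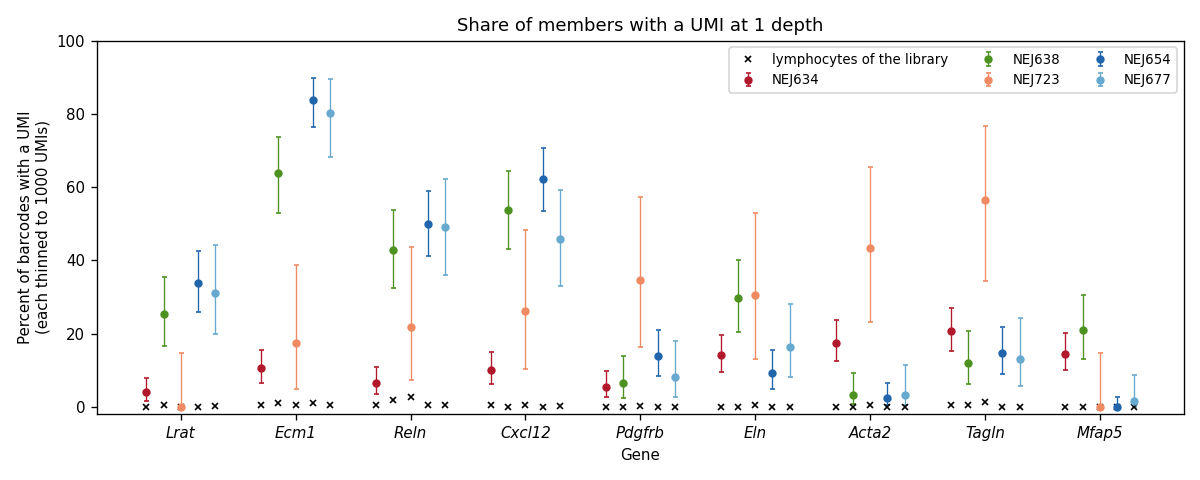
Percent of members with a UMI of 9 genes after thinning each barcode to 1000 UMIs; dots are libraries with exact 95% intervals, crosses the lymphocyte barcodes of the same library. Ecm1 ranges from 10.6% in NEJ634 to 83.8% in NEJ654, and Acta2 from 2.31% in NEJ654 to 43.5% in NEJ723.

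To see how members vary among themselves, each was placed by its UMIs of the stellate list and of the fibroblast and smooth muscle lists together. The stellate share was the larger in 126 of 130 members of NEJ654, 53 of 61 of NEJ677, 60 of 91 of NEJ638, 7 of 23 of NEJ723 and 44 of 199 of NEJ634. 65 members of NEJ634 had no UMI of the stellate list, and 12 had none of the 3 lists; at their depth a missing UMI does not show that a gene was silent.

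**Figure D4:**
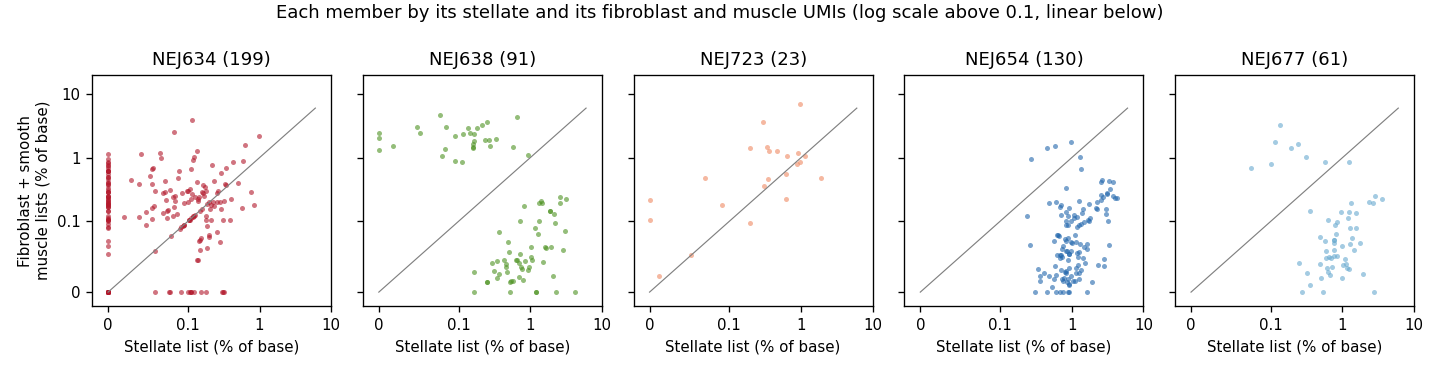
Each point is a member of 1 of 5 libraries (number of members in the title), with the stellate list on the x axis and the fibroblast and smooth muscle lists on the y axis, both in percent of base, on axes that are linear below 0.1 and logarithmic above; the line marks equal shares. 126 of 130 members of NEJ654 lie below the line, and 124 of 199 of NEJ634 above it.

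Clustering of the members without the rule genes gave 7 clusters. Cluster 3 (98 members) was hepatic stellate-like, led among others by Reln, Cxcl12, Ednra and Colec11, and held 56 members of NEJ654, 25 of NEJ638 and 17 of NEJ677. Cluster 4 (52 members) was portal and adventitial fibroblast-like, led by Mgp, Mfap4 and Dpt, with 25 from NEJ638 and 14 from NEJ723. The name was given to the cluster as a whole. At the finer resolution of 1, given further on, 29 of its 52 members lay in a smooth muscle-like cluster. Its members from NEJ723 differed, with high Acta2 and little Dpt or Gsn. Cluster 5 (12 members, 5 each from NEJ638 and NEJ677) was mesothelial-like. These 3 clusters were named from markers other than the rule genes. Cluster 3 also carried the highest endothelial list of the 7 clusters, 6150.4 CPM against 5279.9 in cluster 2 and 1033 in cluster 4, and the part of this RNA in its profile was not tested. At the coarser resolution of 0.25 it was not separate: its members lay in an unnamed cluster of 224 with as many macrophage as stellate markers.

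The other clusters were led by genes of other cells and were not named as mesenchymal. Cluster 2 (126 members, 67 from NEJ654, 31 from NEJ677 and 25 from NEJ638) was led by macrophage genes, among them Folr2, Clec4f and C1qa, yet its stellate list summed to 8620.2 CPM, against 14781 in cluster 3. Its members had a median of 9686.5 UMIs, against 5114 in cluster 3. Cluster 1 (160 members, 146 from NEJ634) was led by neutrophil genes and cluster 6 (15 members) by hepatocyte genes. Cluster 0 (47 members, all from NEJ634) stayed unnamed, with Il12b, Saa3 and Afp in front. Between them clusters 0 and 1 held 47 and 146 of the 199 members of NEJ634, so in that library the clusters did not bear out the label. The matrix genes chose the members and no list is independent evidence, so neither adds evidence for the label there.

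Cluster 4 differed between its 2 main libraries. Gsn stood at 5043 CPM in its members from NEJ638 and 127 in those from NEJ723, and Dpt, a dermatopontin of adventitial fibroblasts, at 2164 and 27.3. Acta2 went the other way, with 574 (435 to 743) and 2613 (2319.6 to 2934). The barcode of most UMIs gave 178 of the 287 Acta2 UMIs of NEJ723 there, and without it Acta2 was 1416 CPM (1163 to 1708) in the other 13. At the finer resolution of 1, cluster 4 was separated into a vascular smooth muscle-like cluster of 29 members and a fibroblast-like one of 23. The first held 14 members of NEJ723, 5 of NEJ654, 4 of NEJ638, 3 of NEJ677, 2 of NEJ634 and 1 of NEJ687. The second held 21 of NEJ638, 1 of NEJ634, 1 of NEJ677 and 0 of NEJ723.

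Levels were also read within the stellate-like cluster. Dcn stood at 6061 CPM in NEJ638, 8501 in NEJ654 and 8401 in NEJ677, and Lrat at 715, 557 and 549.6. Col1a1 stood at 371, 65.3 and 299.8 CPM, against 8847 in the fibroblast-like members of NEJ638. In NEJ638 the level of Col1a1 was thus far higher in the fibroblast-like than in the stellate-like members.

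**Figure D5:**
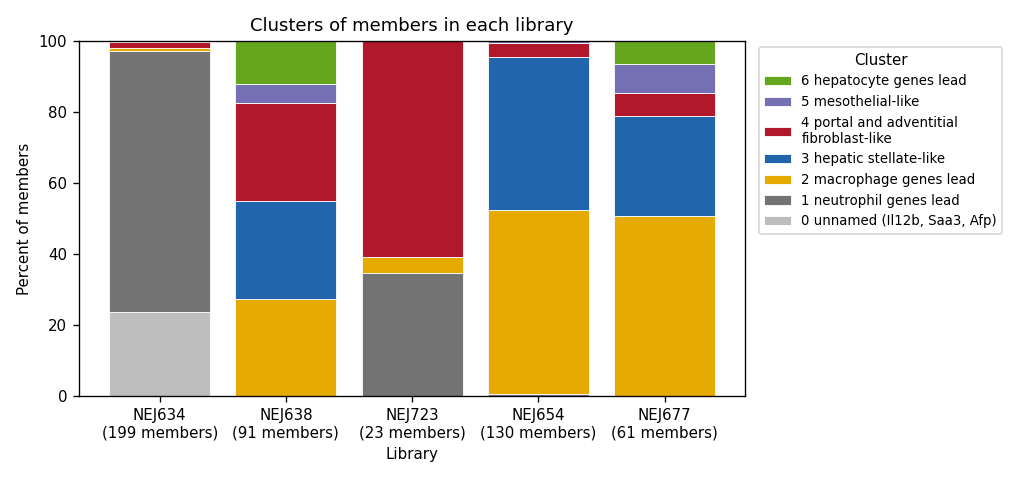
Percent of the members of 5 libraries in each of 7 clusters, stacked to 100%; colours are clusters, with a cell type name only for the 3 that mesenchymal markers lead. The stellate-like cluster holds 43.1% of members of NEJ654 and none of NEJ634 or NEJ723, and cluster 4 holds 60.9% of members of NEJ723, which carried no Mfap5 UMI, had Acta2 at 1416 CPM without the largest barcode, and were smooth muscle-like at the finer resolution of 1.

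Of the members outside these 5 libraries, the 4 of NEJ709 are described above, and 1 of the 2 of NEJ687 had 4 rule UMIs among 1331. The other barcode of NEJ687, of 28247 UMIs, carried 55 Col3a1, 33 Col1a1, 47 Acta2, 48 Tagln, 46 Colec11 and 215 Sparc UMIs, together with 26 of the endothelial gene Ptprb. Among the 5 libraries, the barcode of most UMIs in NEJ634 carried 157 Col3a1, 153 Col1a1, 51 Acta2, 125 Tagln and 105 Ptprb UMIs, and it also had 59 UMIs of the cell cycle gene Top2a. It gave 488 Sparc and 335 Igfbp7 UMIs too, so the NEJ634 levels of these genes rested partly on 1 barcode. In NEJ723 the largest barcode had 178 Acta2 UMIs beside 97 of the macrophage gene C1qc.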

How the data were processed

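Each of the 7 libraries was deposited as a sparse matrix of UMI counts per gene and barcode, which the authors made with Cell Ranger and did not normalise; barcodes of all depths are listed. The file headers name Cell Ranger 4, whereas the submitters' processing notes name Cell Ranger 6.0, as do the study's methods, which add that intronic reads were counted. The version behind these files is therefore uncertain. The genome build is not given in the sources used here. The labels call the samples single cells, while the design text speaks of single nuclei.

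The members and gene lists were chosen with earlier results of these data known, and no list is independent evidence. UMIs were summed over the members of a library and divided by their base UMIs (Python 3.11.15, numpy 2.4.6, scipy 1.17.1, pandas 2.3.3). No statistical test was run, because no label puts a library in a group and cells are not replicates. Folds used genes with a mean CPM of at least 10, with a side at 0 set to 3 UMIs. Named genes were the 4 rule genes, the 20 of highest median fold among genes that passed the filter in all 5 libraries, the 10 of widest range among genes of at least 200 CPM in a library, and the 4 most abundant of each list; Dpt, Timp1, Cdh5, Folr2, Clec4f, Il12b and Saa3 were named after their values were seen. Clusters came from scanpy 1.11.5 (Leiden through igraph 0.11.9, resolution 0.5, 1000 variable genes, 20 components, 15 neighbours). A cluster was named when at least 3 markers of a list stood among its top 50 genes, a stricter limit than the one planned. No doublet caller was run. Values of some list genes are not reported here.

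The fold script was tested on simulated counts. For NEJ634 (8522 genes) it recovered 50 of 50 genes raised by 3 on the log2 scale and 46 of 49 lowered by as much, and called 0 of 8323 unchanged genes. For NEJ723 (7804 genes) it recovered 50 of 50 raised but 24 of 50 lowered genes, and called 47 of 7604 unchanged genes.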

Additional observations from a re-analysis of the deposited data

Results flagged for a closer look

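Barcodes below the UMI limit were used neither as members nor as the barcodes compared with them, yet some carried the matrix genes. Of 48810 barcodes with 501 to 1000 UMIs, 96 met the rest of the rule (0.197%). They were found with the 4 genes of the rule, so their matrix RNA is a description. They lay mostly in NEJ634 (48), NEJ654 (19) and NEJ723 (16). Summed over these barcodes, Sparc stood at 2968 CPM, Bgn at 1052 and Lrat at 219.9, the last from 14 UMIs. The signal was singled out because it lies in barcodes below the limit for members. In NEJ634 the free-RNA profile was read from barcodes of 952 down to 210 UMIs, so part of this range entered that profile.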

How the results depend on the processing

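The number of members was 308 at a limit of 0.5% of base and 317 without members carrying another lineage, both by construction, and stayed within 1.5 times 510 under the other 7 limits tried. Single libraries moved more: with at least 2 rule UMIs NEJ709 had 80 members in place of 4 and NEJ723 47 in place of 23, while NEJ634 had 107 with at least 8 and 83 over 2000 UMIs, in place of 199. The number of genes at least 4-fold higher, without the filter on low values, was 1619 in NEJ634, 1422 in NEJ638, 1847 in NEJ723, 1103 in NEJ654 and 1230 in NEJ677. With a mean CPM of at least 50 it was 111 in NEJ634, 157 in NEJ638, 320 in NEJ723, 116 in NEJ654 and 122 in NEJ677, and with a 2-fold limit 1136 in NEJ634, 896 in NEJ638, 2042 in NEJ723, 747 in NEJ654 and 907 in NEJ677. Averaging over cells gave 257 in NEJ634 and 1704 in NEJ723, for which the cause was not tested. Of the alternatives chosen after seeing the data, a minimum of 10 UMIs gave 457 of 2529 in NEJ723, and leaving out members with endothelial or macrophage UMIs gave 943 in NEJ654 and 1041 in NEJ677, where fewer members remained. A further alternative of this kind left out the barcode of most UMIs, and gave 323 of 8992 in NEJ634 in place of 448 of 9043. Clusters numbered 12 at resolution 1 in place of 7. At resolution 0.25 the stellate-like cluster was lost: its 98 members joined an unnamed cluster of 224 with 6 stellate and 6 macrophage markers.

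Changes of sign were counted only for named genes that differed at least 4-fold in the main setting. Among these the sign of the log2 fold turned for Clec4g in NEJ634 (-0.11, members with endothelial or macrophage UMIs left out), for Igfbp6 in NEJ723 (-0.74, averaged over cells) and for Vcam1 in NEJ723 (-1.16, with either the endothelial or macrophage members or the largest barcode left out). Of the other log2 folds recomputed, 4036 kept their side of the 4-fold limit and 279 did not. Levels moved beyond their counting interval in 1782 of the recomputed values, most often when members were left out. No paired analysis was possible because the labels give no groups and no replicate numbers. Among the 5 libraries for which levels are given, NEJ723 had the fewest summed UMIs of members, and there 3 UMIs are 18.9 CPM.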
